A study of Homo sapiens with 1 sample.

Results

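The promoter peaks of stand-alone long noncoding RNA (lncRNA) genes were taken from an ATAC-seq peak list of 786-O cells. ATAC-seq uses the Tn5 transposase to insert sequencing adapters into accessible DNA, so a peak marks open chromatin and not transcription. A peak was included when it lay on chromosomes 1 to 22, when its summit lay from 1 kb upstream to 100 bp downstream of a transcription start site (TSS) of a lncRNA gene in GENCODE release 44 (hg38), and when the summit was more than 5 kb from every TSS of a protein-coding gene. This gave 1828 of the 86239 autosomal peaks (2.12%), called members here, at the promoters of 1752 lncRNA genes. The whole list held 88676 peaks. 786-O is an established human cell line derived from a clear cell renal cell carcinoma (ccRCC), here carrying the empty vector that served as the control for overexpression of DPF3a, an isoform of a subunit of SWI/SNF, the ATP-dependent remodeller of nucleosomes. The sample label gives the empty vector, while the names of the individual peaks hold a wild-type tag (WT), and the label was followed. There was 1 library without a replicate, and the library with DPF3a was not analysed here. The values below therefore describe this library, without p-values, and peaks or genes are not replicates of a condition. Intervals are 95% intervals that cover counting error only.

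lncRNAs are transcripts that carry no long open reading frame, and many are spliced, capped and polyadenylated much as mRNAs are. Some act as scaffolds in the nucleus, some act on genes near their own site of transcription, and some serve mainly as host transcripts from whose introns or exons microRNAs or small nucleolar RNAs (snoRNAs) are cut. Many lncRNAs start beside a protein-coding promoter and share its open chromatin, whereas a stand-alone lncRNA gene has a promoter of its own. In human promoters, CpG islands (GC-rich stretches that keep their CpG dinucleotides) are typical of genes active in many tissues, while promoters without them are more often restricted to certain cell types.

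Sequences at the summits are shown for genes that represent both kinds of promoter described below. Each runs from 50 bp on the left to 50 bp on the right of the summit of the peak of highest fold, read from the hg38 reference, 5′ to 3′ on the strand of the lncRNA. The promoters of DANCR, MALAT1 and MIR17HG stood in CpG-island-like sequence, and their capitals mark CpG dinucleotides.
DANCR (chr4:52712325-52712425, plus strand): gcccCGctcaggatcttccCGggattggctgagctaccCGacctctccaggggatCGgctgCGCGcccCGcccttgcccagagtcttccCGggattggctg
MALAT1 (chr11:65497525-65497625, plus strand): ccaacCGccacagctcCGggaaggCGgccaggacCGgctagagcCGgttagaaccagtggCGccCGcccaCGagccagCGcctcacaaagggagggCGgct
MIR17HG (chr13:91347596-91347696, plus strand): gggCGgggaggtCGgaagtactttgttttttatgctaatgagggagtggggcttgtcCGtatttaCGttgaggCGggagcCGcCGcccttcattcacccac

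The promoters of SNHG12 and NORAD were also CpG-island-like. Capitals mark an SP/KLF site (GGGGCGG on either strand) in SNHG12 and an ETS site (CCGGAAG on either strand) in NORAD.
SNHG12 (chr1:28581879-28581979, minus strand): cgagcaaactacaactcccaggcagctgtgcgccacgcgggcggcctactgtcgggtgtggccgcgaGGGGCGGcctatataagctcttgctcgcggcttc
NORAD (chr20:36050937-36051037, minus strand): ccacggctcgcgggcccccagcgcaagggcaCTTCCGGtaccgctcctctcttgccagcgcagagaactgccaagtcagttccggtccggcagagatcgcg

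The promoters of LINC00887, LUCAT1, LINC00511, LINC00958 and MIR181A1HG were not CpG-island-like, and their capitals mark an AP-1 site (TGACTCA on either strand), the element bound by FOS and JUN dimers.
LINC00887 (chr3:194322862-194322962, minus strand): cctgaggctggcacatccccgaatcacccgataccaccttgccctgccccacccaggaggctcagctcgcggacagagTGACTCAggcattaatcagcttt
LUCAT1 (chr5:91314408-91314508, minus strand): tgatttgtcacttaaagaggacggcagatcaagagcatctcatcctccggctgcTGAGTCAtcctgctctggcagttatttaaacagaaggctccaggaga
LINC00511 (chr17:72422995-72423095, minus strand): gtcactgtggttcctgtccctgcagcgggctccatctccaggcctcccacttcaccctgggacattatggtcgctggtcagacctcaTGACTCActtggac
LINC00958 (chr11:12989579-12989679, minus strand): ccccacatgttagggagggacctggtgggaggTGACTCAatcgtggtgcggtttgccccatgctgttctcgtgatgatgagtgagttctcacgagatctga
MIR181A1HG (chr1:198937470-198937570, minus strand): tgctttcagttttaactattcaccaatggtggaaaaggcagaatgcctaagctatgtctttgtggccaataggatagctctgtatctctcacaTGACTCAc

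The sequence at DANCR held 8 CpG dinucleotides, those at MALAT1 held 10 and those at MIR17HG held 7, against 4 at LINC00887 and at LINC00958, 2 at LUCAT1 and at LINC00511 and 0 at MIR181A1HG. A match to a motif is a description of the letters and does not show that the factor was bound.

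The label of stand-alone genes was checked against the annotation. Of the 1828 summits, 1518 (83.0%; 81.2 to 84.7) lay outside every protein-coding gene, 224 (12.3%) lay inside 1 on the opposite strand, 80 (4.38%) lay inside 1 on the same strand as the lncRNA, and 6 were overlapped on both strands. Thus 17.0% were away from protein-coding promoters but not from protein-coding genes, and for these peaks an accessible site of the overlapping gene cannot be told apart from a lncRNA promoter. Of the TSSs of the stand-alone lncRNA genes, 25.0% (24.3 to 25.8) lay inside a protein-coding gene, and among the distal peaks 45.5% did. A total of 1311 members (71.7%) were at the canonical TSS of a lncRNA gene, 113 (6.18%) were shared by more than 1 lncRNA gene, and 121 (6.62%) were also in the promoter window of a gene of another type. The median distance to the nearest protein-coding TSS was 42.4 kb (interquartile range, 16.5 to 115 kb). The 3 members closest to the 5 kb limit lay at ENSG00000269997 (5015 bp from ZNF664, fold 19.6), ZSCAN16-AS1 (5037 bp from ZKSCAN8, fold 13.9) and ENSG00000255045 (5041 bp from VSIG2, fold 13.9). Just within 5 kb, and so left out, were peaks at XIRP2-AS1 (4989 bp, fold 40.2), LINC02924 (4972 bp, fold 13.9) and ENSG00000291077 (4927 bp, fold 26.3).

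To ask how often these genes had an open promoter, genes were counted. Of 12753 lncRNA genes with a TSS more than 5 kb from protein-coding TSSs, 1748 (13.7%; 13.1 to 14.3) had a member peak. In the shares of these stand-alone genes, here and below, only member peaks count as promoter peaks. A stand-alone gene with a promoter peak only within 5 kb of a protein-coding TSS, as CRNDE, counts as without one. The next 3 shares count any promoter peak, so they are not measured quite alike. Among all 18390 autosomal lncRNA genes the share was 22.0%, among the 5637 whose TSSs all lay close to a protein-coding TSS it was 35.6%, and among 19111 protein-coding genes it was 62.3%. The share depended on what was known of the gene. Of the genes with only an Ensembl identifier 11.5% had a promoter peak, of those with a LINC symbol 17.8%, of those with an antisense (-AS) symbol 16.1%, and of those with a divergent (-DT) symbol 18 of 97 (18.6%; 11.4 to 27.7). Genes with more annotated start sites offer more windows for a peak. Protein-coding genes had a median of 5 distinct TSSs, against 1 for stand-alone lncRNA genes. The share was 9.35% with 1 distant TSS, 15.2% with 2 to 3, 26.9% with 4 to 9 and 38.9% with 10 or more. Among genes with 1 distant TSS, the identifier-only genes (9.24%; 8.57 to 9.95), the LINC genes (10.1%; 8.04 to 12.4) and the -AS genes (8.33%; 5.81 to 11.5) had overlapping intervals.

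Open chromatin was concentrated at the start sites. Around the 12222 canonical TSSs of stand-alone lncRNA genes there were 26.9 summits per 1000 TSSs in the 100 bp just upstream of the TSS, against 3.50 per 1000 TSSs in bins 3 to 5 kb away, a ratio of 7.69. Around 19040 protein-coding TSSs the same 100 bp held 153 summits per 1000 TSSs and the flanks 5.05. The highest bin of the protein-coding TSSs was the one 100 to 200 bp upstream, with 156, a ratio of 30.8 to the flanks. More than 5 kb from protein-coding TSSs, the lncRNA promoter windows made up 0.883% of bases and held 3.19% (3.04 to 3.33) of 57379 summits, or 89.0 summits per Mb against 24.1 per Mb elsewhere. The windows were thus 3.61 times as rich in summits as their length. At the density elsewhere, the 20.5 Mb of these windows would hold 495 summits in place of 1828.

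**Figure D1:**
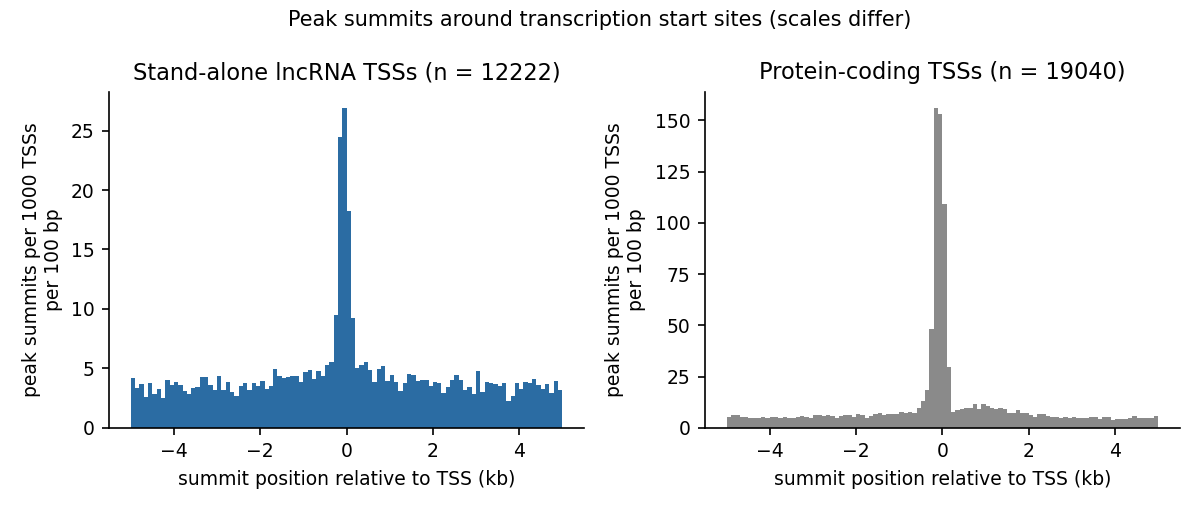
Peak summits per 1000 TSSs in bins of 100 bp (y axis) against the position of the summit relative to the canonical TSS in kb (x axis, negative upstream), for stand-alone lncRNA genes and for protein-coding genes, with different y scales. Summits rose from 3.50 to 26.9 per 1000 TSSs at lncRNA TSSs and from 5.05 to 156 at protein-coding TSSs.

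Within the promoter window, the members gathered close to the TSS. The median summit lay 116 bp upstream (interval of the median, 106 to 129 bp). Where the windows of several TSSs held a summit, its position was taken to the nearest TSS. This choice draws positions toward the TSS, so the shares of the window given here are not a strict expectation. The stretch from the TSS to 200 bp upstream is 18.3% of the window and held 44.9% of the summits, and the 100 bp downstream are 9.08% of the window and held 348 of the 1828 (17.3 to 20.9%). The stretch from 501 to 1000 bp upstream is 45.4% of the window and held 19.6% of them. Summits far from the TSS were weaker and poorer in CpG. The median fold was 17.0 at 0 to 200 bp upstream, 13.9 at 201 to 500 bp and 9.79 at 501 to 1000 bp, where it equalled that of distal peaks. The share of CpG-island-like windows fell along the same stretches as 29.8%, 13.3% and 10.1%. A TATA box (TATAAA on the coding strand, 20 to 40 bp upstream) was found at 1.27% (0.809 to 1.90) of the members' nearest TSSs, 1.21% of stand-alone lncRNA TSSs without a peak and 1.06% of protein-coding TSSs.

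The strength of a peak is given as the fold enrichment at the summit, the ratio of the pileup of reads over the summit to the genome-wide background of the peak caller. The members had a median fold of 14.4 (13.4 to 14.9), at a median pileup of 27, with an interquartile range of 8.24 to 26.8 and a maximum of 116. Protein-coding promoter peaks had a median of 20.1 (19.6 to 20.6), and distal peaks, more than 5 kb from protein-coding TSSs and in no promoter, had 9.79. The stand-alone lncRNA promoters therefore lay between them, at 0.718 times the median of protein-coding promoters and 1.47 times that of distal sites. Those lncRNA promoter peaks that lay within 5 kb of a protein-coding TSS had the highest median, 23.7 (22.7 to 24.7). A fold of 20 or more was reached by 672 members (36.8%; 34.5 to 39.0), against 26.2% of all autosomal peaks, 50.8% of protein-coding promoter peaks and 21.1% of distal peaks. A pileup under 15 lay behind 437 members (23.9%), against 35.6% of all autosomal peaks and 39.2% of distal peaks. Their median width was 628 bp (608 to 656), against 477 bp for distal and 989 bp for protein-coding promoter peaks.

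**Figure D2:**
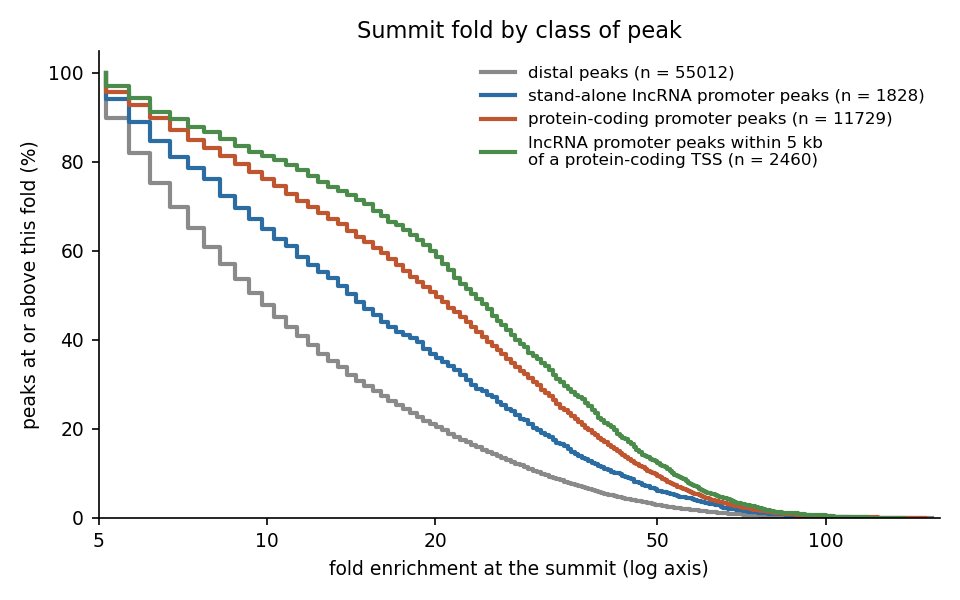
Share of peaks (y axis, %) at or above a given fold enrichment at the summit (x axis, log scale) for 4 classes of peak. The 1828 stand-alone lncRNA promoter peaks run between the 55012 distal and the 11729 protein-coding promoter peaks, with 36.8% of them at a fold of 20 or more.

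The median of the members was above that of all peaks on every autosome. The ratio of their median fold to that of all peaks of the same chromosome ranged from 1.09 on chromosome 19 to 1.76 on chromosome 7 and was above 1 on 22 of 22. On several chromosomes the interval of the member median reached below the median of all peaks. On chromosome 19 it was 9.79 to 17.5 against 11.3, and on chromosome 10 it was 9.79 to 16.5 against 10.8. The highest median folds were on chromosome 7 (19.1; 16.0 to 23.7) and chromosome 1 (18.6; 14.9 to 23.2). The share of stand-alone lncRNA genes with a promoter peak ranged from 8.43% (5.94 to 11.5) on chromosome 18 to 19.4% (16.3 to 22.7) on chromosome 7. Copy number of the chromosomes in 786-O cells was not measured here, and its part in these differences was not tested.

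The sequence at the summit separated the members into 2 kinds. A window of 150 bp to each side of the summit was called CpG-island-like when its GC content was over 50% and its observed CpG count over 0.6 of that expected from its base composition. This held for 441 members (24.1%; 22.2 to 26.2), against 14.4% of all autosomal peaks, 2.10% of distal peaks, 64.5% of protein-coding promoter peaks and 78.4% of lncRNA promoter peaks near a protein-coding TSS. The median GC content of the members was 51.7%, between 46.2% for distal and 63.8% for protein-coding promoter peaks. CpG-island-like members had a median fold of 19.6 (18.6 to 22.2) and a median width of 880 bp, and their summits lay a median of 60.0 bp upstream of the TSS. The 1387 others had a median fold of 12.9 (11.9 to 13.4), a width of 575 bp and a median position 143 bp upstream.

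The classes were then compared within each kind. Among CpG-island-like peaks the order was that of all peaks, and the members (19.6) were below protein-coding promoters (24.7; 24.2 to 25.2) and above distal peaks (12.4; 11.9 to 12.9). Among peaks that were not CpG-island-like the members (12.9) were slightly above the protein-coding promoters (11.3; 10.8 to 11.9), a ratio of 1.14 with intervals that met at 11.9, and above distal peaks (9.79; 9.28 to 9.79). The lower median of all members relative to all protein-coding promoters thus held in the CpG-island-like class and was not seen in the other. The peaks of a class share library and depth, and GC content can itself affect how well fragments are amplified, which was not tested.

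**Figure D3:**
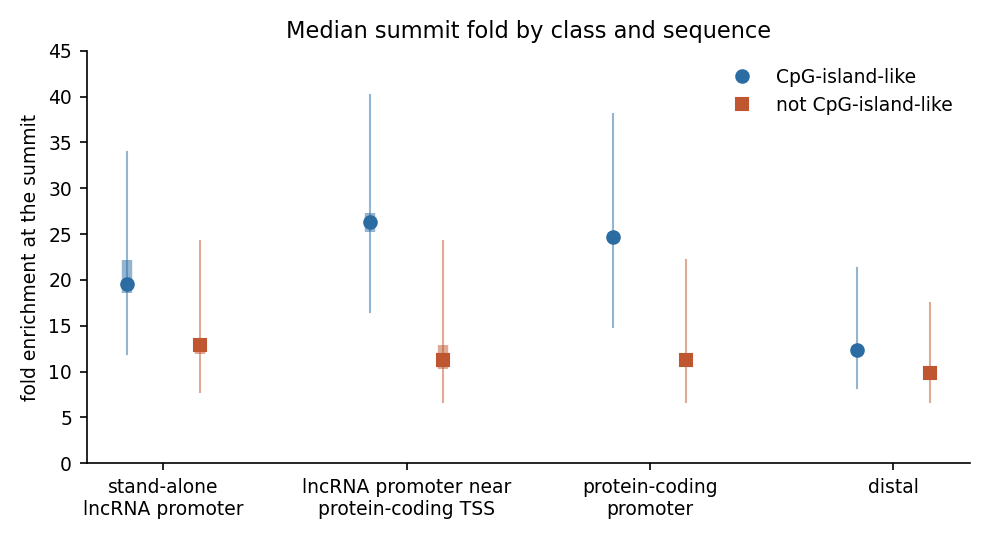
Fold enrichment at the summit (y axis) for 4 classes of peak (x axis), split into CpG-island-like (circles) and other (squares) summit windows. Markers are medians, thick bars 95% intervals of the median and thin bars interquartile ranges, and the members have medians of 19.6 and 12.9.

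The same division was seen from the side of the genes. At 1 TSS per gene, 10.5% (10.0 to 11.1) of stand-alone lncRNA genes had a CpG-island-like TSS, against 68.3% of protein-coding genes. Of the 1342 stand-alone genes with such a TSS 34.9% (32.3 to 37.5) had a promoter peak, and of the 11411 others 11.2% (10.6 to 11.8). The corresponding shares of protein-coding genes were 77.9% (77.2 to 78.6) and 28.7% (27.6 to 29.9), above those of stand-alone lncRNA genes in either kind of sequence. These shares count a peak at any TSS of the gene, and protein-coding genes had a median of 5 distinct TSSs against 1. The part of the number of TSSs in this difference was not tested. A TSS inside a protein-coding gene had a peak in 9.61% (8.61 to 10.7) of genes, and one outside in 15.1% (14.4 to 15.8). CpG-island-like members were most frequent 10 to 20 kb from the nearest protein-coding TSS (33.8%; 28.5 to 39.4) and made up 14.1% (11.0 to 17.7) at 100 to 500 kb. Of the stand-alone genes with a peak, 72.5% (70.4 to 74.6) had a nearest protein-coding gene that also had a promoter peak, against 60.9% (60.0 to 61.8) of those without.

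Some members served start sites on both strands. At 95 members (5.20%) lncRNA TSSs of both strands shared the peak, and these peaks had a median fold of 29.4 (21.1 to 36.1), a median width of 1076 bp and CpG-island-like sequence in 65.3% (54.8 to 74.7). The 1733 with TSSs of 1 strand had a median fold of 13.9 (13.4 to 14.4), a width of 616 bp and such sequence in 21.9%.

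The motifs at the summits followed the same division. An AP-1 site within 50 bp of the summit was found at 235 members (12.9%; 11.4 to 14.5), against 15.6% of all autosomal peaks, 18.8% of distal peaks and 5.12% of protein-coding promoter peaks. It was found at 1.59% (0.640 to 3.24) of CpG-island-like members and at 16.4% (14.5 to 18.5) of the others, near the share of all peaks and below the 19.1% (18.7 to 19.4) of distal peaks that were not CpG-island-like. Protein-coding promoter peaks divided likewise, with 0.859% (0.664 to 1.09) of those with and 12.9% (11.9 to 13.9) of those without CpG-island-like sequence. A scrambled AP-1 sequence (CTATGAC) was found at 0.930% of members and 1.30% of all peaks. It divided in the same direction, at 0.227% (0.00574 to 1.26) of CpG-island-like members and 1.15% (0.661 to 1.87) of the others. In distal peaks these shares were 0.173% and 1.55%. The shares of AP-1, RUNX and TEAD sites were not corrected for base composition, and its part in their division was not tested. RUNX (TGTGGT) and TEAD (GGAATG) sites were distributed as AP-1 sites were. In members they lay at 11.2% and 9.81% of those that were not CpG-island-like and at 2.49% each of those that were. They were found at 12.6% and 9.43% of all autosomal peaks, and at 10.3% and 8.93% of protein-coding promoter peaks that were not CpG-island-like. At least 1 of these 3 motifs was found at 33.3% (30.8 to 35.9) of the members without and at 6.58% (4.45 to 9.31) of those with CpG-island-like sequence, against 32.9% of all autosomal peaks and 38.4% of distal peaks.

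SP/KLF sites ran the other way, at 18.4% (14.9 to 22.3) of CpG-island-like members and 2.16% (1.46 to 3.07) of the others, with 4.13% among all peaks. The share in CpG-island-like members was below that in CpG-island-like protein-coding promoter peaks (24.4%; 23.4 to 25.3). ETS sites were found at 4.99% (3.15 to 7.46) of CpG-island-like members and 1.59% of the others, with 1.52% among all peaks. The NFY site (CCAATCA) was found at 4.31% and 1.37% of them, with 1.58% among all peaks. Motifs that hold CpG or are rich in GC are more frequent by base composition alone in such windows, and the shares were not corrected for it. The CTCF motif, that of the factor that holds chromatin loops, was found at 3.56% (2.75 to 4.51) of members and 3.63% of all peaks. The core hypoxia response element ACGTG, which overlaps the E-box CACGTG, was found at 8.48% (7.24 to 9.85) of members, 7.04% of all peaks and 9.05% of protein-coding promoter peaks.

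**Figure D4:**
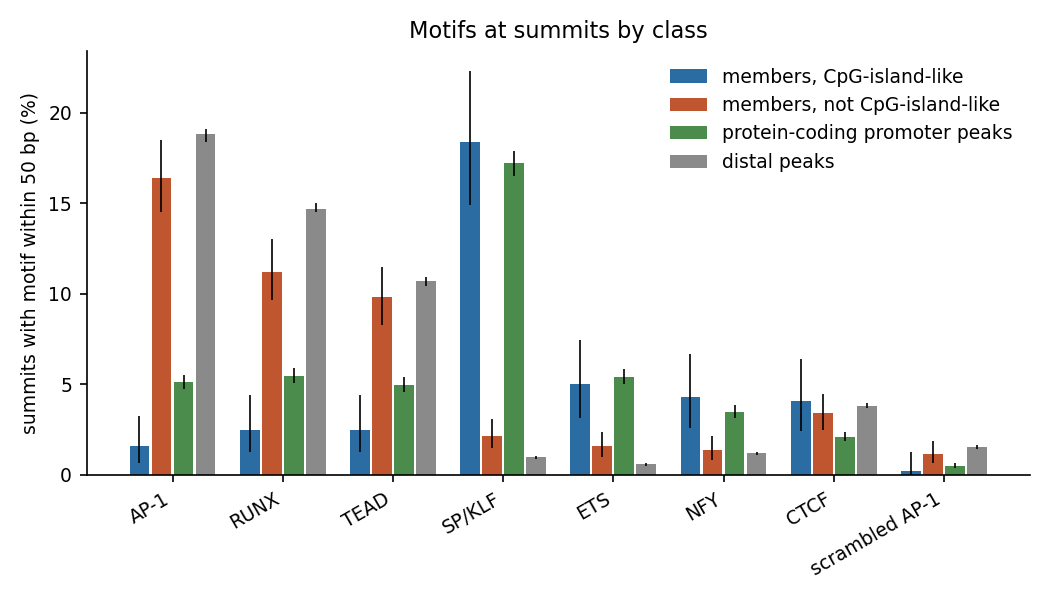
Share of summits with a motif within 50 bp on either strand (y axis, %) for 7 motifs and a scrambled control (x axis), with exact 95% intervals as bars. AP-1, RUNX and TEAD were most frequent in distal peaks and in members that were not CpG-island-like, and SP/KLF in CpG-island-like members and protein-coding promoter peaks. The distal and protein-coding promoter peaks are not split by sequence here.

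The composition of the members differed with their strength. When members were divided by fold into 4 groups of 457, the CpG-island-like share was 12.0%, 20.8%, 28.7% and 35.0% from the weakest to the strongest, and the AP-1 share was 8.53%, 12.7%, 12.0% and 18.2%. The CTCF share had no steady order, with 3.50% (2.01 to 5.62), 7.22% (5.02 to 9.99), 2.63% (1.36 to 4.54) and 0.875% (0.239 to 2.23) in the same groups. Summits within 200 bp of the TSS made up 51.2% of the weakest and 72.9% of the strongest group. Members with an AP-1 site had a median fold of 18.0 (15.5 to 21.1), and those without one of 13.9 (13.4 to 14.4). The same division by fold is not given for other peaks, so these trends are not shown to be particular to the members.

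The strongest members lay at genes with and without a symbol. The 20 genes with the highest peak shared 19 peaks with folds from 77.8 to 116, and 9 of the 20 had only an identifier. Of the 19 peaks, 7 had an AP-1 site, 6 were CpG-island-like and 17 lay outside protein-coding genes. Over all autosomal peaks at any fold, 15.6% had an AP-1 site and 14.4% were CpG-island-like, and the shares among other strong peaks are not given here. Chromosome 8 held 7 of them, chromosomes 1 and 9 held 3 each and chromosome 7 held 2. The highest was at ENSG00000254204, 225130 bp from the nearest protein-coding TSS (ATP6V1H), with a fold of 116 (102 to 133), although its summit was 677 bp upstream of the TSS. The peak shared by ENSG00000254028 and ENSG00000289405 followed with 110.3 (96.0 to 126), and those of RDH10-AS1 and GASAL1 with 106 each (92.2 to 122), all on chromosome 8. ENSG00000204876 on chromosome 7, 139344 bp from the TSS of SHH, which had no promoter peak, had 97.9 (84.5 to 113). The counting intervals of neighbours in this order overlapped.

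Off chromosome 8, the strongest member at a gene with a symbol was that of MIRLET7A1HG, the host transcript of a let-7 cluster on chromosome 9, with a fold of 89.1 (76.4 to 103) in a CpG-island-like window. FGGY-DT had 88.6 (75.9 to 103) with its summit 4 bp from the TSS, LINC01504 had 84.5 (72.1 to 98.4), PDK4-AS1 had 79.4 (67.4 to 92.9), and LINC00511 had 78.8 (66.9 to 92.3), with AP-1 sites at FGGY-DT, LINC01504 and LINC00511. The LINC00511 peak lay at an internal TSS, and the summit nearest its canonical TSS, 80 bp downstream, had 29.4 (22.3 to 38.0). ENSG00000230285, 17753 bp from CCN1, a matricellular gene, had 86.6 and an AP-1 site. ITGB1-DT and NUDT16-DT, named as divergent transcripts, had 77.8 each (65.9 to 91.2) and lay 11752 and 19944 bp from the nearest protein-coding TSS, those of ITGB1 and NUDT16. PVT1, the neighbour of MYC, had its highest member fold of 89.1 (76.4 to 103) at an internal TSS. Relative to its own chromosome, 25 members (1.37%) were in the top 1% of folds, on 14 chromosomes, and 13 of these 25 had an AP-1 site. Over all autosomal peaks at any fold 15.6% had one. The share among all peaks in the top 1% is not given here, so a trait particular to the members is not shown.

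A few genes held several member peaks. Of the 1752 genes, 1613 had 1 member peak, 106 had 2, 20 had 3, 8 had 4, 4 had 5 and 1 had 11. The last was LINC00511, whose 84 annotated TSSs near SOX9 gave 11 member peaks over 272 kb, with folds from 6.18 to 78.8 and a median of 29.4. PVT1, with 132 TSSs, had 5 over 122 kb with folds from 22.7 to 89.1. LINC00963, LINC01013 and SNHG17 also had 5 each, with highest folds of 33.0, 46.9 and 40.2. These 5 genes had 55 to 132 annotated TSSs, whereas the median stand-alone gene had 1. Accessible sites were also dense in some of them, with 39 summits inside LINC00511 and 63 inside PVT1. Whether each of these member peaks is a promoter or another accessible site of the gene was not tested. The widest members were at GASAL1 (5134 bp, fold 106), LINC02004 (4887 bp, 59.8), LINC-PINT (4361 bp, 56.7), ENSG00000255317 (3816 bp, 51.5) and LINC00886 (3726 bp, 36.1), and of these only LINC00886 was CpG-island-like.

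Host genes of small RNAs had larger shares with a member peak than stand-alone lncRNA genes as a whole (13.7%), and also more annotated TSSs. Of 20 stand-alone snoRNA host genes (SNHG), 13 had a member peak (65.0%; 40.8 to 84.6), with a median fold of 29.9 (range, 14.4 to 43.3). Another 12 SNHG genes had a promoter peak within 5 kb of a protein-coding TSS, as at SNHG1 and SNHG3. Among these, SNHG5, SNHG10, SNHG29 and SNHG31 also had a distant TSS and count among the 20 without a member peak. Of the 13, 11 were CpG-island-like, 12 had the summit within 100 bp of a TSS and 1 had an AP-1 site. Among all members 24.1% were CpG-island-like and 12.9% had an AP-1 site. SNHG15 had 43.3 (34.6 to 53.5), SNHG17 40.2, SNHG8 38.6, SNHG6 35.0, SNHG21 32.5, SNHG12 29.4 and SNHG7, the lowest, 14.4 (9.68 to 20.8). The SNHG17 peak lay at an internal TSS, and the summit nearest its canonical TSS, 419 bp upstream, had 11.3 (7.21 to 17.1). The SNHG12 peak also lay at an internal TSS, with the summit 1057 bp downstream of the canonical TSS. SP/KLF sites lay at SNHG6, SNHG8, SNHG12 and SNHG21, and E-box motifs at SNHG25 and SNHG26. EPB41L4A-AS1, which also carries a snoRNA, had 41.2 (32.7 to 51.2), with the summit 241 bp downstream of its canonical TSS. The stand-alone SNHG genes had a median of 12.0 distinct TSSs, against 1 for all stand-alone genes. SNHG14, SNHG27 and SNHG32 had no promoter peak. The nearest summit lay 1.05, 82.7 and 773 kb from a TSS of these genes, in that order. Whether the list lacks entries there was not tested.

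Of 65 stand-alone microRNA host genes (MIR...HG), 22 had a member peak (33.8%; 22.6 to 46.6), with highest folds from 5.67 to 89.1, a median of 19.8 and a median of 6 distinct TSSs over the 65, and 10 of the 22 were CpG-island-like. MIR3142HG had 52.0 (42.4 to 63.2), MIR181A1HG 49.5 (40.1 to 60.4) and MIR181A2HG 49.0 (39.7 to 59.8), all without a CpG-island-like window. Of the 22, MIR181A1HG alone had an AP-1 site. Among all members 12.9% had one, and 24.1% were CpG-island-like. MIR17HG, host of the oncogenic cluster that bears its name, had 31.9 (24.6 to 40.9). MIRLET7BHG and MIR29B2CHG had 18.0 each (12.6 to 25.0), MIR100HG and MIR99AHG, which carry related clusters on different chromosomes, had 16.5 each (11.4 to 23.2), and MIR23AHG and MIR31HG had 13.4 each (8.85 to 19.5). The peaks of MIR3142HG, MIRLET7BHG, MIR100HG and MIR99AHG lay at internal TSSs. At the summit nearest the canonical TSS, MIRLET7BHG had 10.3 (57 bp downstream). There MIR3142HG had 24.2 (748 bp downstream), MIR100HG 7.21 (3329 bp away) and MIR99AHG 24.2 (4496 bp), all outside the window. The MIR31HG summit lay 282 bp downstream of its canonical TSS. MIR583HG and MIR4300HG, at 5.67 (2.99 to 9.99), were close to the lowest fold in the list. Of the 50 microRNA host genes without a promoter peak, 6 had a summit within 1 kb of a TSS that lay outside the window. MIR155HG was among them, with a fold of 28.9 (21.9 to 37.4) 431 bp downstream of its canonical TSS, and so was MIRLET7IHG, with 34.0 (26.4 to 43.2) 608 bp downstream. MIR122HG and MIR205HG are examples of those without a summit within 1 kb, with the nearest 3.50 and 6.29 kb from a TSS.

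Of 49 listed lncRNA genes known from cancer and RNA biology, 45 were annotated as lncRNA genes on the autosomes. A total of 21 had a member peak, 8 had a promoter peak within 5 kb of a protein-coding TSS (among them GAS5, CRNDE and ZFAS1) and 16 had none. The 41 that were stand-alone had a share of 51.2% (35.1 to 67.1), in a list chosen for genes that are well studied. Among nuclear and abundant lncRNAs, MALAT1, a component of nuclear speckles, had 23.7 (17.4 to 31.5) with the summit 65 bp upstream of its TSS. NEAT1, the scaffold of paraspeckles, had a single member peak of 6.18 (3.34 to 10.7) at an internal TSS, and the summit nearest its canonical TSS, 1384 bp away and so outside the window, had 28.3 (21.4 to 36.8). NORAD, which sequesters PUMILIO proteins, had 19.6 (13.9 to 26.8), and KCNQ1OT1, an imprinted antisense transcript, had 23.2 (17.0 to 31.0). DANCR had 73.7 (62.1 to 86.8), the highest of those with a CpG-island-like window. DLEU2, host of a microRNA cluster at a region often deleted in leukaemia, had 24.7 (18.3 to 32.7). The DLEU2 peak was shared with DLEU1 and lay at an internal TSS, with the summit 1131 bp downstream of the canonical TSS.

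The lncRNA genes named for cancer are given by the highest of their member peaks. LINC-PINT, which responds to p53, had 67.5 (56.5 to 80.1) at an internal TSS, the highest of 4 member peaks over 40 TSSs, and 12.4 (8.03 to 18.3) at the summit nearest its canonical TSS, 288 bp upstream. LINC00887 had 55.7 (45.7 to 67.1) and LUCAT1, a stress-responsive transcript, had 41.2 (32.7 to 51.2), the last with its summit 19 bp from the TSS. Lower values were found at LINC00958 (25.2; 18.8 to 33.3), LINC01094 (23.7; 17.4 to 31.5) and UCA1 (10.3; 6.41 to 15.8). The summit nearest the canonical TSS had 11.9 (7.62 to 17.7) at LINC01094, 6126 bp away, and 6.70 (3.71 to 11.3) at UCA1, 53 bp away. PURPL, another p53-responsive gene, had 7.73 (4.46 to 12.6) at an internal TSS, below LINC00958 with intervals that did not overlap. The summit nearest the canonical TSS of PURPL, 150 bp upstream, had 6.18 (3.34 to 10.7). AP-1 sites lay at 5 of the 21, namely LINC00511, LINC00887, LINC00958, LUCAT1 and PVT1. Of all members 12.9% had one, and of all autosomal peaks 15.6%. Each gene is given by its highest peak, and members with an AP-1 site had higher folds (median, 18.0 against 13.9). Of the 16 without a promoter peak, 4 had a summit downstream of the canonical TSS, beyond the 100 bp limit and within 1 kb. At LINC00460 this summit had a fold of 48.4 (39.2 to 59.2) and lay 342 bp downstream, at LINC00973 it had 35.0 (27.3 to 44.4) at 193 bp, at LINC01139 it had 42.8 (34.1 to 53.0) at 730 bp, and at HOTAIR it had 6.18 (3.34 to 10.7) at 197 bp. MEG3, H19, FENDRR and CYTOR had no summit within 1 kb of any TSS. The nearest summit lay 4.06 kb from a TSS at MEG3, 8.75 kb at FENDRR, 37.2 kb at CYTOR and 52.1 kb at H19. Reads of low mapping quality had been removed. Whether these loci lacked open sites or lacked entries in the list was not tested.

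**Figure D5:**
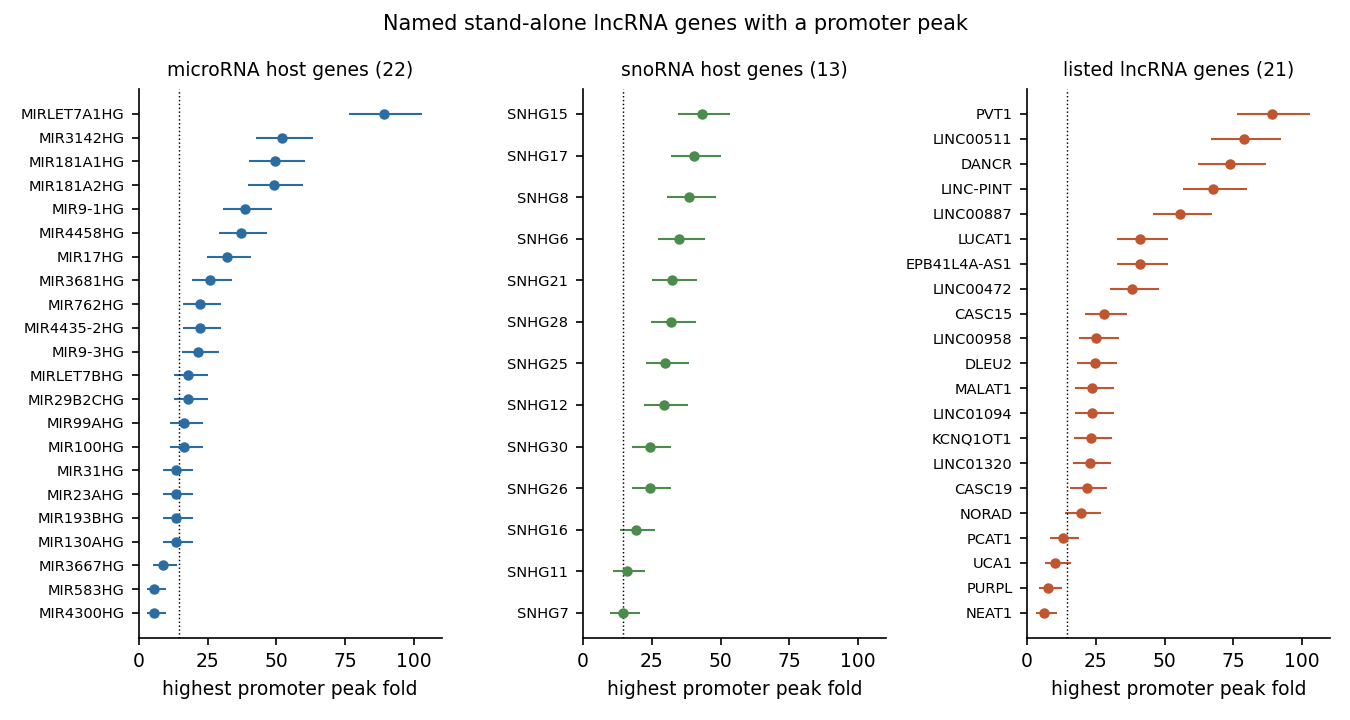
Highest member fold (x axis, with exact Poisson 95% counting intervals as bars) of the microRNA host, snoRNA host and listed lncRNA genes that had a stand-alone promoter peak. The dotted line is the median of all members, 14.4, and 13 snoRNA host genes lie between 14.4 and 43.3.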

How the data were processed

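ATAC-seq peaks of 1 library of 786-O cells with an empty vector were analysed. As stated in the methods, the authors used fastp for trimming and Bowtie2 for alignment to hg38, removed mitochondrial, low-quality and duplicate reads, and called peaks with MACS2 against a genome-wide background. The submitters' processing notes name Bowtie2 2.3.4.3 and MACS2 2.2.6. A shift to the Tn5 cutting position is not given in the sources used here, so a summit may lie some bases off the insertion site. The deposited list gives for each peak a fold (ratio of summit pileup to background), a −log10 p-value, a −log10 q-value and a score derived from the q-value. The lowest score was 52 and peak numbers ran to 111260, so the list of 88676 peaks had been filtered after numbering.

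Folds equalled the pileup plus 1 over the background of 0.941 plus 1, and pileups recovered from them were whole within 1.69e-05. The pileup, from 9 to 225 in the members, is the depth behind each value and, being a maximum, tends to be too high. Sequencing depth as a read total is unknown. Medians carry order-statistic intervals, shares exact (Clopper-Pearson) intervals, and folds exact Poisson intervals, all at 95%. GENCODE release 44 was used, with scipy 1.17.1, pandas 2.3.3, numpy 2.4.6 and matplotlib 3.10.9 under Python 3.11.15. Class assignment and the motif search were tested on simulated data. The motif search covered 50 bp to each side of a summit, on both strands. Protein-coding promoter peaks lay in the same window of a protein-coding TSS and in no lncRNA window, and distal peaks in no promoter window of any gene and more than 5 kb from protein-coding TSSs.

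The members and lists were chosen with earlier results of these data known. Named were the 20 genes of highest fold, all MIR...HG and SNHG genes, 49 listed lncRNA genes (another listed gene is not reported here), the 5 widest members, the 5 genes with most members and the 3 peaks on each side of the 5 kb limit. Of the host and listed genes without a peak, those given as examples were chosen after their values were seen. Alternatives were score minimums of 100 and 200, a distance of 10 kb, canonical TSSs, a window of 1 kb to both sides, overlap of the interval, other summit windows and leaving out chromosomes 5, 7 and 8. The share of summits in repeats was planned and not run, since the reference used here is not soft-masked.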

Additional observations from a re-analysis of the deposited data

Results flagged for a closer look

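Chromosome X was outside the rule, and by the same definition 35 stand-alone lncRNA promoter peaks lay on it, 1.57% of its 2236 peaks, against 2.12% of the autosomal peaks. They are given because no result above uses that chromosome. Their median fold was 12.4 and the highest was 26.8. There was no control sample to set it against.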

How the results depend on the processing

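Of 74 alternative values, 45 stayed within the intervals of the reported ones or, for the number of members, within 1.5 times of it, 29 moved and 0 reversed. With a score above 100 the share of stand-alone genes with a peak was 11.1%, the median fold 19.1, the ratio to protein-coding promoters 0.804, the median GC content 53.2% and the CpG-island-like share 27.3%. With a score above 200 these were 8.50%, 23.7, 0.868, 54.5% and 31.3%, the number of members was 1072, the ratio to distal peaks 1.18, the AP-1 share 14.8%, the CTCF share 2.33% and the share inside protein-coding genes 14.8%. A higher score removes low folds by construction. With canonical TSSs alone the share of genes was 11.1%, GC content 52.8%, CpG-island-like share 27.8% and gene-body share 19.3%. With 1 kb to both sides the share of genes was 17.9%, the ratio to protein-coding promoters 0.765 and the CpG-island-like share 21.0%, and with overlap of the interval they were 17.1%, 0.778 and 21.6%. Beyond 10 kb, 13.4% lay inside protein-coding genes. Windows of 50 bp to each side gave a GC content of 53.5%, and windows of 100 bp an AP-1 share of 22.7% and a CTCF share of 6.29%. Leaving out chromosomes 5, 7 and 8 moved no value beyond its interval.

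No paired analysis was possible because a single library, with nothing to pair it to, was analysed. The share of summits in soft-masked repeats was not run. Counting intervals are wide, with 8.85 to 19.5 at a fold of 13.4, and a gene without a summit in the list is not shown to be closed. Of the named genes without a promoter peak, 7 microRNA host genes, 2 snoRNA host genes and 1 listed gene had no summit within 50 kb of a TSS, and whether such stretches lacked open sites or lacked entries in the list was not tested.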

Other observations

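Genes that the annotation marks as overlapping a pseudogene had a promoter peak in 140 of 704 (19.9%; 17.0 to 23.0) against 1608 of 12049 (13.3%; 12.7 to 14.0). They had a median of 2 distinct TSSs, against 1 for the others. Their highest peaks had a median fold of 20.1 (16.0 to 24.7), against 14.9 (14.4 to 16.0). Pseudogene sequence can share reads with its parent gene, so these values are uncertain.

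Stand-alone lncRNA genes with 1 exon had a promoter peak in 12.5% (10.9 to 14.3) and those with 2 or more exons in 13.9% (13.2 to 14.5). The best peaks of the genes with 1 exon had a median fold of 18.0 (15.5 to 22.2), against 14.9 (14.4 to 16.0).

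The GATA motif (AGATAA) was found at 3.83% (3.00 to 4.81) of members and 4.58% of all autosomal peaks.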
